A study of Homo sapiens with 4 samples.

Results

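LY96, also called MD-2, is the small secreted protein that holds bacterial lipopolysaccharide against the ectodomain of Toll-like receptor 4 (TLR4). It was described here together with TLR4, the adaptors and kinases that relay the signal of this receptor, and the NF-kB subunits at the end of the relay. The 10 genes were LY96, TLR4, MYD88, TIRAP, IRAK1, IRAK4, TRAF6, NFKB1, NFKB2 and RELA, taken by name from the 60662 genes of the deposited count table. LY96 heads the set because of its high counts in the knockout libraries, so the set was chosen by the counts of LY96 in the contrast of KO with WT. The values of all 10 genes in this contrast are given as a description, and nothing is concluded from a test of them. The tests concern 125 further genes of the pathway.

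The cells were HAP1, an adherent near-haploid line that descends from KBM-7 chronic myeloid leukaemia cells. Their total RNA was copied into cDNA, amplified by PCR and sequenced as long reads with Oxford Nanopore chemistry on a MinION. The knockout (KO) group was 1 library each of the purchased MATR3 knockout clones 1 and 5, so each clone stands for 1 edited line. The wild-type (WT) group was 2 libraries of the purchased parental clone 4, called A and B here. All were grown in IMDM with heat-inactivated fetal calf serum, penicillin and streptomycin, and the labels name no lipopolysaccharide, cytokine or other stimulus in either group. MATR3 encodes matrin 3, a nuclear protein that binds RNA and DNA. The labels name no separate cultures, so a p-value measures the spread among these libraries only, and that spread may be technical.

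Library totals were 3121759 counts for KO clone 1, 4024026 for KO clone 5, 3509906 for WT A and 5303199 for WT B. The KO columns carry a later date tag than the WT columns, so genotype and date cannot be told apart. The column of WT A also carries the tag FACS and that of WT B the tag test.F2, and the sources used here explain neither. The main MATR3 gene model had 187 and 204 counts in KO clones 1 and 5, against 171 and 304 in WT A and B. A count summed over the gene does not show a small edit and so does not check the KO labels. The parental loci BCR and ABL1 had 9 to 12 summed counts in the KO libraries and 12 to 16 in the WT libraries. Of 12 myeloid and pan-leukocyte markers, 10 were at 0 in all 4 libraries, PTPRC, CD68, ITGAM, LYZ and SPI1 among them, and their summed level was 0.259 to 0.614 CPM in KO and 0 in WT.

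In the textbook pathway, a complex of MD-2, TLR4 and lipopolysaccharide dimerises and recruits TIRAP and MYD88, which assemble the kinases IRAK4 and IRAK1. These pass the signal to the ubiquitin ligase TRAF6, whose ubiquitin chains gather the kinase MAP3K7 (TAK1) with its TAB adaptors and the IkB kinase (IKK) complex. IKK then marks the IkB inhibitors for degradation, which frees NF-kB dimers to enter the nucleus and bind the kappaB motif at inflammatory genes.

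Promoters of 8 of the 10 genes were in the RefSeq table (GRCh38.p14). The 250 bases before each start were searched for the kappaB consensus, the DNA motif that NF-kB dimers bind. Only the strand of the gene was read. The consensus used is not its own reverse complement, so matches on the opposite strand were not sought. On the strand read, it was found in 2 of the 8, those of NFKB2 and IRAK1, against 7.46% of all 35116 promoters of this length. LY96 and TIRAP were not searched. NFKB2 held 2 matches and IRAK1 held 1. Every site found is printed, and the part of these sites in any difference between KO and WT was not tested. Each is shown 5′ to 3′ on the strand of the gene, with the match in capitals and 10 bases on either side.
NFKB2, chr10:102395519-102395548, plus strand, match beginning 176 bases before the start: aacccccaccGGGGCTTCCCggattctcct
NFKB2, chr10:102395674-102395703, plus strand, match beginning 21 bases before the start: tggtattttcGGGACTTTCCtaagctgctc
IRAK1, chrX:154019997-154020026, minus strand, match beginning 114 bases before the start: tccccggcgcGGGGCGCCCCcgtgtgaccc
The starts are those of RefSeq. The GENCODE model of NFKB2 begins farther upstream, so both sites lie inside the gene span given below. A match is a description of the letters and not evidence of binding in these cells.

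LY96 lies on chromosome 8 from 73991392 to 74029079 (hg38, plus strand), a protein-coding gene whose canonical transcript of 559 bases is the shortest of the 10 genes. KO clone 1 held 205 LY96 counts and KO clone 5 held 100, against 9 in WT A and 37 in WT B. Both KO libraries lay above both WT libraries, and within each group the libraries were far apart. In CPM, the counts scaled to library size, the level was 44.4 ± 26.2 CPM in KO and 4.79 ± 2.99 CPM in WT (SD, n = 2 each). The fitted log2 fold change was 3.13 (SE 0.49, edgeR), or 8.73-fold, and this difference ranked 12 from the top among the 10505 genes with enough counts to be fitted. With a library left out the rank ran from 15 without KO clone 5 to 49 without WT A. In bulk RNA, more cells that express LY96 and more LY96 RNA per cell cannot be told apart.

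The size of the LY96 difference rested on which libraries were set against each other. The lower KO level was 3.75 times the higher WT level, and the higher KO level was 23.5 times the lower WT level. KO clone 1 held 62.9 CPM (95% exact Poisson interval 54.6 to 72.2) and KO clone 5 held 25.9 CPM (21.1 to 31.5), so clone 1 stood 2.43-fold above clone 5. The WT libraries held 2.68 CPM in A (1.22 to 5.08) and 6.90 CPM in B (4.86 to 9.51). Molecules copied by PCR are not independent, so these intervals take in counting error alone, and with 1 library a clone the gap between the clones cannot be checked. Without KO clone 1 the log2 fold change was 2.35, and without WT B it was 4.00. The authors' deposited table gives LY96 a log2 fold change of 3.17 (SE 0.58). The sign of the fold changes quoted from that table fits the counts, but the Wald statistic beside them there has the opposite sign.

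TLR4, the receptor that MD-2 serves, was not detected. TLR4 (chromosome 9, 117704175 to 117724735) had 0 counts in both KO libraries and both WT libraries. A count of 0 allows up to 0.921 CPM in KO clone 1 and 0.776 CPM in KO clone 5, against 0.892 CPM in WT A and 0.559 CPM in WT B (3 counts per library). It could not be fitted. These limits take in counting error alone. TLR4 shares 678 exonic bases with another annotated protein-coding gene on the same strand, and the effect of this on its count was not tested. CD14, which hands lipopolysaccharide to the complex, had 1 count in each KO library and 0 in each WT library, and LBP, the plasma protein that delivers it, had 0 and 1 counts in KO and 1 and 0 in WT.

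**Figure D1:**
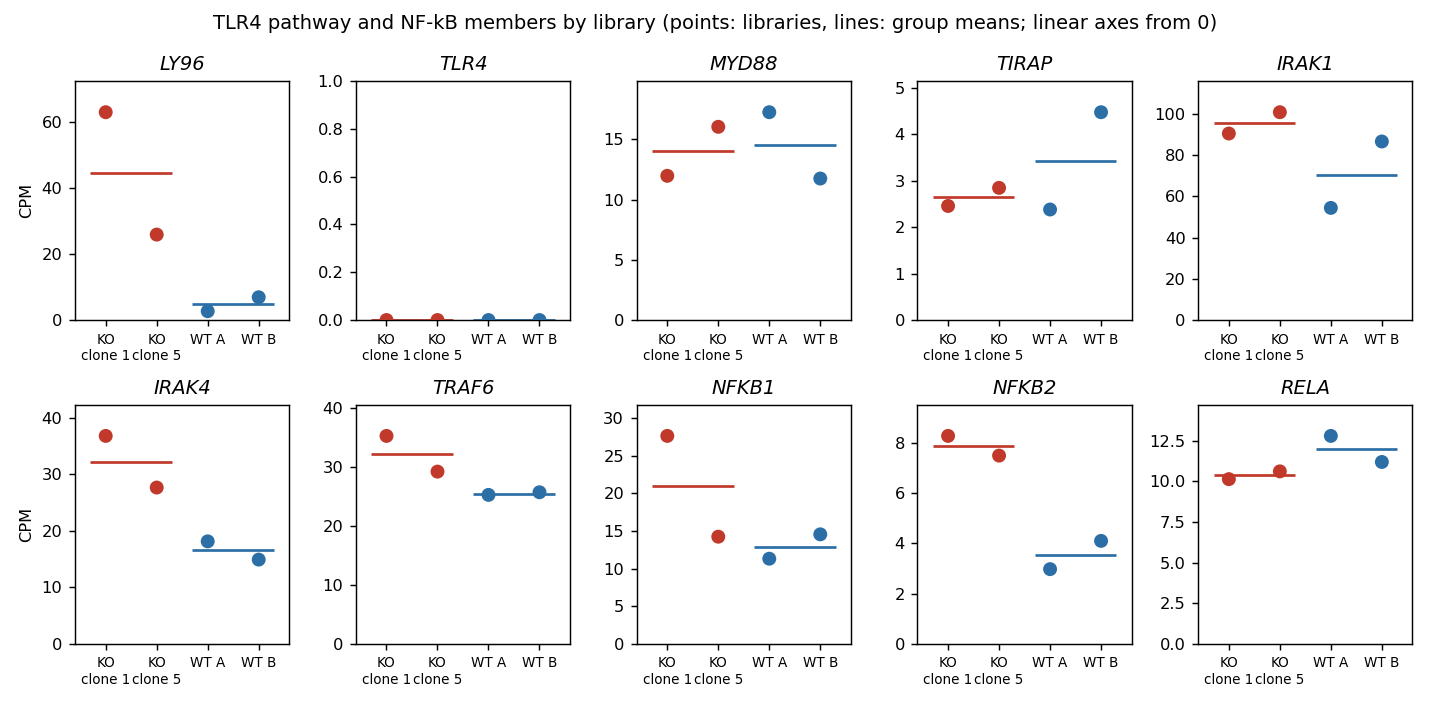
CPM of the 10 genes in each library, KO clones in red and WT libraries in blue, with a line at each group mean and each vertical axis starting at 0. LY96 runs from 25.9 to 62.9 CPM in KO and from 2.68 to 6.90 CPM in WT, TLR4 is at 0 in all 4 libraries, and MYD88 and TIRAP overlap between the groups.

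The 2 adaptors that dock on the receptor differed between the groups by less than the spread of the libraries. MYD88, the adaptor shared by most Toll-like receptors (chromosome 3, 38138552 to 38143024), had 39 and 62 counts in KO clones 1 and 5, against 58 and 63 in WT A and B. Its level was 14.0 ± 2.88 CPM in KO and 14.5 ± 3.89 CPM in WT (SD, n = 2 each), which gave a log2 difference of -0.03 (SE 0.33) that ran from -0.32 to 0.26 over 11 alternative settings. TIRAP, which brings MYD88 to TLR4 at the membrane (chromosome 11, 126282497 to 126298845), had 8 and 11 counts in KO, against 8 and 24 in WT. The groups overlapped for both genes. The log2 fold change of TIRAP was -0.42 (SE 0.50), at counts too low to resolve a difference of that size. TIRAP shares 492 and 361 exonic bases with noncoding genes on the opposite strand.

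IRAK4 and IRAK1 both lay higher in the KO libraries, IRAK4 by more. Their relatives IRAK2, with 1 and 1 counts in KO against 2 and 2 in WT, and IRAK3, with 1 and 3 against 3 and 7, had too few counts to be tested. IRAK4, the kinase that starts the cascade (chromosome 12, 43758944 to 43798307), had 120 and 107 counts in KO clones 1 and 5, against 61 and 80 in WT A and B. That was 32.3 ± 6.47 CPM in KO and 16.5 ± 2.28 CPM in WT (SD, n = 2 each), with no overlap and a log2 fold change of 0.97 (SE 0.31). IRAK4 shares 103 exonic bases with TWF1 on the opposite strand, and the sources used here do not say whether counting used strand. TWF1 had 24 and 22 counts in KO, against 25 and 38 in WT. IRAK1, the kinase that IRAK4 phosphorylates (chromosome X, 154010506 to 154019902), had 295 and 390 counts in KO, against 183 and 465 in WT. In CPM the KO libraries of IRAK1 lay just above the WT libraries, at 95.7 ± 7.32 against 70.6 ± 22.8 (SD, n = 2 each), and the lower KO level was 1.04 times the higher WT level. Its log2 fold change was 0.43 (SE 0.30), with 0.15 without WT A and 0.79 without WT B.

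TRAF6, the ubiquitin ligase on which the IRAK kinases converge (chromosome 11, 36483769 to 36510272), had 115 and 113 counts in KO clones 1 and 5, against 85 and 138 in WT A and B. Its CPM did not overlap, at 32.3 ± 4.29 in KO and 25.5 ± 0.314 in WT (SD, n = 2 each). The log2 fold change of 0.34 (SE 0.29) was little more than its error. Of the 20 other tested protein-coding genes within 5 Mb of TRAF6, 12 were positive, with a median log2 fold change of 0.35. Around IRAK1, 26 of 41 were positive, with a median of 0.21. The medians around the other fitted members ran from -0.14 (TIRAP) to 0.08 (MYD88). The part of these regions in the values of the members was not tested.

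Among the NF-kB subunits, NFKB2 lay higher in both KO clones, NFKB1 in 1 of them, and RELA slightly lower. NFKB2, the precursor of the subunit of the non-canonical pathway (chromosome 10, 102394110 to 102402524), had 27 and 29 counts in KO clones 1 and 5, against 10 and 22 in WT A and B. Its level was 7.90 ± 0.555 CPM in KO and 3.54 ± 0.797 CPM in WT (SD, n = 2 each), with no overlap and a log2 fold change of 1.12 (SE 0.40), at low counts. NFKB2 is the gene with the pair of kappaB matches printed above, and any part of these in its value was not tested.

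NFKB1, the precursor of the DNA-binding subunit of the canonical dimer (chromosome 4, 102501330 to 102617302), had 90 and 55 counts in KO clones 1 and 5, against 38 and 78 in WT A and B. KO clone 1 stood apart at 27.6 CPM, while KO clone 5 at 14.2 CPM lay between WT A at 11.3 and WT B at 14.5 CPM. The log2 fold change of NFKB1 was 0.67 (SE 0.36), and 0.13 without KO clone 1. RELA, the transactivating partner of that dimer (chromosome 11, 65653599 to 65663090), had 33 and 41 counts in KO, against 43 and 60 in WT. Its KO libraries lay below its WT libraries by a small margin, at 10.4 ± 0.338 CPM against 12.0 ± 1.13 CPM (SD, n = 2 each), with a fitted log2 difference of -0.20 (SE 0.32).

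Of the 9 members that were fitted, 5 had both KO libraries above both WT libraries and 1 had both below, where 25.0% and 22.8% of all genes tested did so. LY96 was the 1 member called at an adjusted p under 0.05, against 2.19% of all genes. Since this contrast chose LY96, nothing is read from that count. A log2 fold change above 0 was found in 6 of the 9 members and in 50.3% of all genes. The median log2 fold change of the 9 was 0.43, against 0.0021 over all 10505 genes. LY96, chosen by this contrast, is in each of these counts and in the median, so they are a description only. KO clone 1 exceeded KO clone 5 by 2.43-fold in LY96 and 1.94-fold in NFKB1, and the clone 1 to clone 5 ratio of the other 7 ran from 0.746 in MYD88 to 1.33 in IRAK4. The authors' deposited table lists 7 of the 10 genes, without TLR4, TIRAP and NFKB2, and gives IRAK4 a log2 fold change of 0.96 (SE 0.43) and NFKB1 of 0.68 (SE 0.52), again with a Wald statistic of the opposite sign. These values come from the same 4 libraries and are no second measurement.

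**Figure D2:**
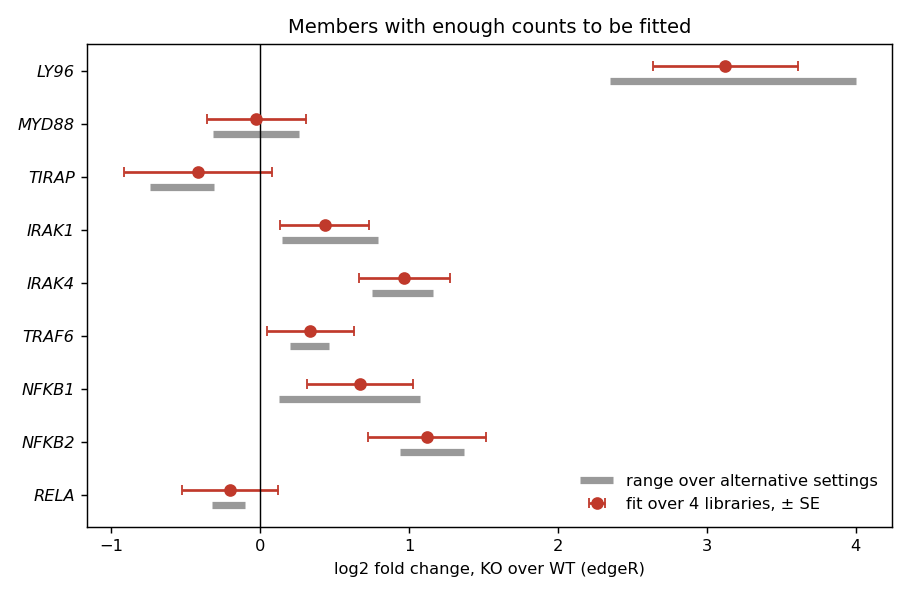
Fitted log2 fold change of KO over WT for the 9 members with enough counts, as points with the standard error, and below each the range over the alternative settings. LY96 is at 3.13 and between 2.35 and 4.00 over its settings, IRAK4 and NFKB2 stay above 0.7, and the range of MYD88 spans 0.

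Set in order of level per kilobase of canonical transcript, LY96 took another place in the 2 groups. A long read can cover a whole short transcript, so a level per kilobase favours the short LY96 transcript. In KO, LY96 came first at 79.4 ± 46.9 CPM per kilobase, then IRAK1 at 26.7 ± 2.04, IRAK4 at 7.53 ± 1.51, MYD88, NFKB1, RELA, TRAF6, NFKB2 at 2.62 ± 0.184 and TIRAP at 1.21 ± 0.126 (SD, n = 2 each). In WT, IRAK1 came first at 19.7 ± 6.37 CPM per kilobase, then LY96 at 8.57 ± 5.34, MYD88, RELA, IRAK4 at 3.86 ± 0.533, TRAF6, NFKB1, TIRAP at 1.57 ± 0.677 and NFKB2 at 1.17 ± 0.264 (SD, n = 2 each). In KO, neighbours from MYD88 to TRAF6 overlapped between libraries and are not ordered by these data, and in WT the same held for LY96 with MYD88, MYD88 with RELA, TRAF6 with NFKB1, and TIRAP with NFKB2. By CPM alone, without the length, IRAK1 was first in both groups, and LY96 was the second in KO and the seventh of the 9 detected genes in WT by the group means. These places overlap between libraries: in KO clone 5 LY96, at 25.9 CPM, lay below TRAF6 at 29.2 and IRAK4 at 27.7 CPM, and in WT A, at 2.68 CPM, below NFKB2 at 2.97 CPM.

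The tested protein-coding neighbours of LY96 had smaller differences than LY96. TMEM70, 8.6 kb before it, had 367 and 683 counts in KO clones 1 and 5, against 511 and 698 in WT A and B, a log2 fold change of 0.04 (SE 0.29). ELOC, a subunit of the elongin complex 19.1 kb before it, had 0.24 (SE 0.21), and UBE2W, a ubiquitin-conjugating enzyme, had -0.36 (SE 0.29). On the other side JPH1, a junctophilin, had 1.16 (SE 0.40) and GDAP1 0.90 (SE 0.36), neither called (edgeR adjusted p = 0.165 and 0.231), and PI15 had too few counts to be tested, with 0 and 0 in KO against 3 and 14 in WT. Over the 18 tested protein-coding genes within 5 Mb of LY96, the median log2 fold change was -0.11 and 8 lay above 0.

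By pattern over the 4 libraries, the genes most like LY96 among 8492 with a mean of at least 20 counts were FZD10, TBX3, BVES, SPARCL1 and ST6GAL1. The measure was the root mean square difference of centred log2 CPM, which was 0.234 for FZD10, a Wnt receptor, and 0.486 to 0.504 for the others. FZD10 had 44 and 25 counts in KO clones 1 and 5, against 1 and 11 in WT A and B. ST6GAL1, a sialyltransferase and the most abundant of them, had 1220 and 958 counts in KO, against 139 and 570 in WT. TBX3 is a transcription factor and SPARCL1 a matricellular protein. With 4 libraries such likeness says little more than that all 6 genes were high in both KO libraries and higher in clone 1.

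**Figure D3:**
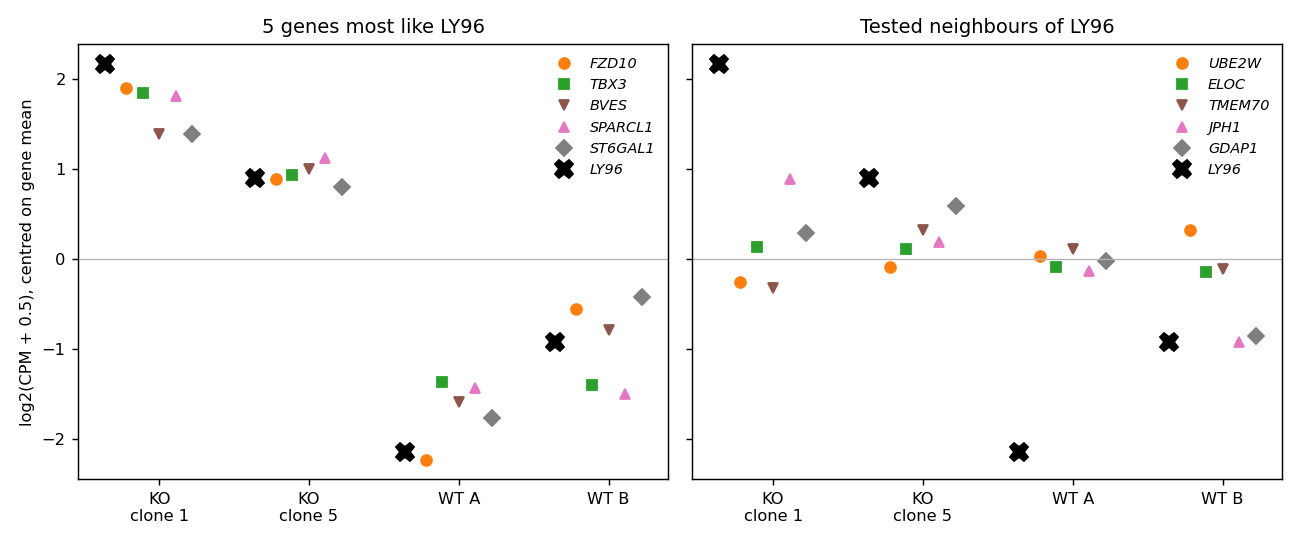
log2(CPM + 0.5) centred on each gene's mean, by library, for LY96 (black crosses) with the 5 genes most like it on the left and with its 5 tested neighbours on chromosome 8 on the right. The genes on the left are high in both KO libraries and low in both WT libraries, while TMEM70, ELOC and UBE2W on the right stay near 0.

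Among the 125 other pathway genes, 63 had enough counts to be tested, 2 rose in the KO clones and 0 fell. Across all 10505 genes tested 1.58% rose and 0.609% fell. The test was edgeR's quasi-likelihood test, two-sided, with Benjamini-Hochberg adjustment over all genes tested and a threshold of 0.05. At an unadjusted p under 0.05 there were 8 higher and 2 lower among the 63, against 16.4% of all genes in either direction. The share of all genes in each direction at this threshold was not computed. Nothing is therefore read from the split by direction, here or in the single lists below. The median log2 fold change of the 63 was 0.08. DESeq2 and limma-voom also called 2 higher and 0 lower, and without a scaling factor edgeR called 0 of either.

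In the MYD88 arm, 8 of 12 other genes were tested, 1 rose and 0 fell, with a median log2 fold change of 0.11. The gene that rose was TAB2, the adaptor that ties MAP3K7 (TAK1) to ubiquitin chains made by TRAF6. It had 123 and 75 counts in KO clones 1 and 5, against 21 and 36 in WT A and B, or 28.6 ± 13.0 CPM in KO and 6.48 ± 0.329 CPM in WT (SD, n = 2 each). Its log2 fold change was 2.12 (SE 0.37, adjusted p = 0.0127 by edgeR), and 1.57 without KO clone 1; without a scaling factor the adjusted p was 0.0691. TAB2 lies on chromosome 6 from 149218641 to 149411613, and of the 28 other tested protein-coding genes within 5 Mb of it, 27 had a log2 fold change above 0, with a median of 0.87 and 6 called higher. The part of that region in the TAB2 value was not tested. TAB2 also shares 136 exonic bases with a noncoding gene on the same strand. MAP3K7 itself had 9.55 ± 0.0402 CPM in KO and 9.01 ± 1.14 CPM in WT, a log2 fold change of 0.09 (SE 0.33). TAB3 had 0.96 (SE 0.63), with 12 and 14 counts in KO against 1 and 16 in WT (0.29 without WT A and 3.45 without WT B), TAB1 had -0.30 (SE 0.34), UBE2N, the ubiquitin-conjugating partner of TRAF6, had -0.35 (SE 0.26) and ECSIT -0.49 (SE 0.31), none of them called.

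Of the NF-kB and IkB proteins, 7 of 10 other genes were tested, 1 rose and 0 fell, with a median log2 fold change of 0.18. NKRF, the NF-kB repressing factor, had 101 and 126 counts in KO clones 1 and 5, against 31 and 72 in WT A and B. Its level was 31.8 ± 1.13 CPM in KO and 11.3 ± 2.97 CPM in WT (SD, n = 2 each), which gave a log2 difference of 1.47 (SE 0.31, adjusted p = 0.0271 by edgeR). The adjusted p of NKRF was 0.237 without WT A, where its log2 fold change was 1.25, and 0.0905 without a scaling factor. NKRF shares 956 exonic bases with UBE2A on the opposite strand, which stood at 153 ± 14.3 CPM in KO and 153 ± 13.8 CPM in WT (SD, n = 2 each). The inhibitor gene NFKBIA, which NF-kB itself induces, had 101 and 177 counts in KO, against 118 and 171 in WT, or 0.20 on the log2 scale (SE 0.31, adjusted p = 0.789 by edgeR). REL had -0.23 (SE 0.32), COMMD1, which promotes turnover of RELA, -0.52 (SE 0.30) and NFKBID -0.78 (SE 0.45), none of them called. RELB, NFKBIE and NFKBIZ had too few counts to be tested.

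At the IKK step 8 of 10 genes were tested and 0 rose or fell, with 1 at an unadjusted p under 0.05 in each direction and a median log2 fold change of -0.00017. CHUK, the IKK alpha kinase, had 68 and 64 counts in KO clones 1 and 5, against 31 and 56 in WT A and B, with a log2 difference of 0.92 (SE 0.32, adjusted p = 0.160 by edgeR). IKBKB, the IKK beta kinase, had 0.10 (SE 0.42), and IKBKG, the regulatory subunit NEMO, -0.74 (SE 0.45). MAP3K8 had -0.90 (SE 0.40, adjusted p = 0.275 by edgeR) and was called lower without KO clone 5, with -1.69 and an adjusted p of 0.0294 by edgeR. That fit has 1 KO library, which is assumed to vary like the WT libraries. BIRC2 had 0.39 (SE 0.29). RNF31, the catalytic subunit of the linear ubiquitin ligase, was listed at 0 counts in all 4 libraries, while its partners RBCK1 and SHARPIN had 52.2 ± 21.3 and 25.8 ± 7.01 CPM in KO and 51.2 ± 6.24 and 26.5 ± 2.92 CPM in WT.

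The receptor and TRIF lists held no call. Beside LY96 and TLR4, 3 of 8 genes of the receptor complex and its chaperones were tested, with a median log2 fold change of 0.03 and 0 at an unadjusted p under 0.05. HSP90B1, the endoplasmic reticulum chaperone of Toll-like receptors, had 0.20 (SE 0.27), its co-chaperone CNPY3 -0.28 (SE 0.30) and the trafficking factor UNC93B1 0.03 (SE 0.51). Of 16 other receptors, those of the Toll-like and IL-1 families and the TNF receptor TNFRSF1A, 11 were at 0 counts in all 4 libraries, among them IL1R1 and all Toll-like receptors listed other than TLR2 and TLR3. The 2 that were tested were SIGIRR, an inhibitory receptor of the IL-1 family, at 107 ± 24.2 CPM in KO and 96.1 ± 5.46 CPM in WT, and TNFRSF1A at 10.7 ± 1.29 CPM in KO and 11.5 ± 2.42 CPM in WT (SD, n = 2 each), with a median log2 fold change of 0.02 and 0 at an unadjusted p under 0.05. In the TRIF arm, the branch of TLR4 signalling that leads to interferon, 7 of 12 genes were tested, with a median of -0.11 and 0 at an unadjusted p under 0.05. AZI2 had 0.61 (SE 0.41), IRF3, the transcription factor of that branch, 0.42 (SE 0.37), TRAF3 -0.15 (SE 0.30) and TANK -0.39 (SE 0.31).

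Of the MAP kinase and AP-1 arm 11 of 12 genes were tested and 0 were called, with 2 higher and 1 lower at an unadjusted p under 0.05 and a median log2 fold change of 0.09. MAP2K4, a kinase upstream of JNK, had 217 and 161 counts in KO clones 1 and 5, against 95 and 140 in WT A and B, or 0.99 on the log2 scale (SE 0.32, adjusted p = 0.131 by edgeR), and was called without KO clone 5 (1.29, adjusted p = 0.00753 by edgeR), under the same assumption for the lone KO library. MAP2K7 had 0.77 (SE 0.36), MAP2K6, a kinase upstream of p38, -0.96 (SE 0.33, adjusted p = 0.155 by edgeR) and MAPK9 0.48 (SE 0.39). Of the negative regulators 8 of 11 were tested and 0 were called, with 1 higher and 0 lower at an unadjusted p under 0.05 and a median of 0.08. DUSP1, a MAP kinase phosphatase, had 0.91 (SE 0.39, adjusted p = 0.266 by edgeR), OTULIN, which removes linear ubiquitin, 0.41 (SE 0.36), TNIP1 0.29 (SE 0.31) and TRIM38 -0.44 (SE 0.41).

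Of 37 NF-kB target genes other than NFKB2, 27 had too few counts to be tested. Of these, 11 were at 0 counts in all 4 libraries, CXCL8, CXCL1 and CCL5 among them. Of the 10 that were tested 0 rose or fell, with 2 higher and 0 lower at an unadjusted p under 0.05 and a median log2 fold change of 0.17. The 11 also hold TNF, LTA, LTB and IER3, which lie in the MHC region, for which hg38 holds alternate contigs, and the effect of these on the counts was not tested. IL6 had 1 count in KO clone 5 and 0 elsewhere, and IL1B had 0 and 1 counts in KO against 0 and 2 in WT. VCAM1, an adhesion molecule, had 26 and 17 counts in KO clones 1 and 5, against 12 and 7 in WT A and B, with a log2 difference of 1.42 (SE 0.53, adjusted p = 0.197 by edgeR), which was 2.21 without WT A and 0.75 without WT B. SOD2, the mitochondrial superoxide dismutase, had 19 and 28 counts in KO, against 12 and 14 in WT, and 1.11 (SE 0.43, adjusted p = 0.208 by edgeR). SOD2 lies on chromosome 6 from 159669069 to 159762529, the chromosome of TAB2, but outside the 5 Mb window around TAB2. The part of its own region in the SOD2 value was not tested. TNFAIP2 had 0.27 (SE 0.32) and GADD45B -0.54 (SE 0.44). The cyclooxygenase gene PTGS2 had 5 and 6 counts in KO, against 1 and 1 in WT, and BIRC3 had 2 and 2 in KO, against 0 and 0 in WT, both too few to be tested. CXCL2 and CXCL3 went the other way, each with 0 and 0 counts in KO against 2 and 1 in WT, also too few. CCL2, which was tested, had -0.27 (SE 0.34) and was not called.

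**Figure D4:**
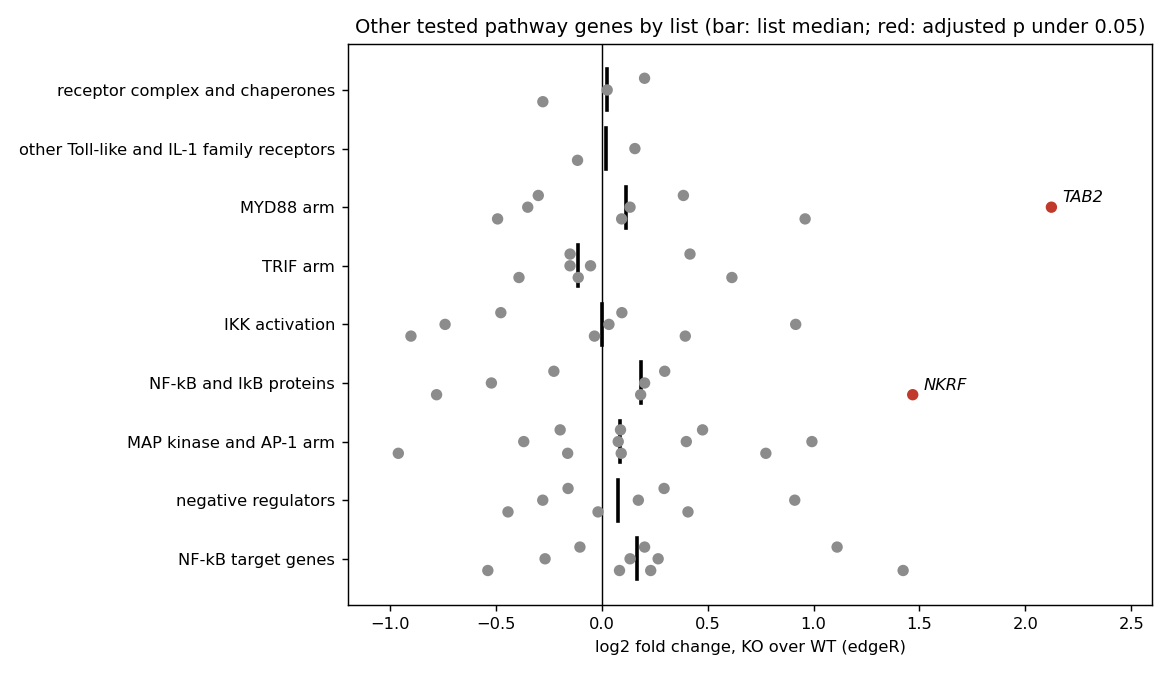
Fitted log2 fold change of KO over WT for the 63 other tested pathway genes, 1 point per gene in each list that holds it (TNFRSF1A stands with the Toll-like and IL-1 family receptors), with a bar at the list median. TAB2 at 2.12 and NKRF at 1.47 are the 2 genes past the threshold, and the list medians lie between -0.11 and 0.18.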

How the data were processed

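The deposited counts are raw reads per gene over 60662 genes, and 26477 of these had at least 1 count. Per the submitters' processing notes, the tools were Subread, minimap2, DESeq2 1.22.2, DESeq and SAMtools and the build was hg38. Tool settings, the annotation and the use of strand: not given in the sources used here. From the authors' deposited table of comparisons the log2 fold change and its error were copied, per the file headers. The WT columns carry the WT product number and no replicate number, so each is a WT replicate without a number, with A the column tagged FACS. Unused count columns numbered 0.

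The whole table was fitted in edgeR 4.0.16 (R 4.3.3), KO against WT, after filterByExpr (counts of at least 10, total of at least 15) and TMM scaling, by robust quasi-likelihood and Benjamini-Hochberg adjustment over 10505 genes. CPM used TMM-scaled library sizes. Each SE was obtained by dividing the log2 fold change by the square root of its F statistic. The median count per tested gene was 48 and 54 in KO clones 1 and 5, and 44 and 76 in WT A and B, which limits genes near 10 counts. The fit was checked on simulated counts. Alternatives were RLE, upper-quartile and no scaling, no filter, a filter at a mean of 50 counts, limma-voom (limma 3.58.1), DESeq2 1.42.0 and each library left out.

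The members and the 9 pathway lists were chosen by role with earlier results of these data known. Named genes were the 10 members, every called list gene, up to 4 further genes per list with the lowest p, the 5 genes most like LY96 and 3 protein-coding neighbours on each side; other genes named, and the window of 5 Mb, were chosen after their values were seen. Positions and transcript lengths came from GENCODE 44 on hg38, and promoters from RefSeq on GRCh38.p14. Marker lists covered myeloid, lymphoid, endothelial and fibroblast genes. The lymphoid list summed to 7 and 6 counts in KO clones 1 and 5 and 7 and 10 in WT A and B, the endothelial list to 1 and 1 in KO and 3 and 0 in WT, and the fibroblast list to 20 and 11 in KO and 11 and 27 in WT.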

Additional observations from a re-analysis of the deposited data

How the results depend on the processing

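No paired analysis was possible because the WT count columns carry no replicate number and the KO numbers are clone numbers. All 9 fitted members other than MYD88 kept the sign of their log2 fold change under every setting that gave a value. Without a scaling factor 20 genes rose and 11 fell over all genes, and 0 pathway genes rose, with TAB2 at an adjusted p of 0.0691 and NKRF at 0.0905. Without a count filter 385 rose and 183 fell, at a mean of 50 counts or more 71 and 12, and 32 fell with DESeq2 and 41 with limma-voom. With each library left out in turn, 91 to 674 genes rose and 42 to 361 fell, with the extremes without WT A, KO clone 5, WT B and KO clone 5; of the other pathway genes 1 to 3 rose and 0 to 1 fell. Without WT A the gene called was TAB2. Uncalled genes that changed sign with a library left out had log2 fold changes of -0.93 to 0.55 (UNC93B1), -0.10 to 0.37 (SIGIRR), -0.29 to 0.11 (TNFRSF1A), -0.13 to 0.79 (IRF3), -0.42 to 0.12 (TRAF3), -0.11 to 0.45 (NFKBIA) and -0.031 to 0.52 (TNFAIP2), and UNC93B1 also had -0.010 with upper-quartile scaling and -0.12 with limma-voom. The cause of these shifts was not tested. No scaling setting moved the median of the genes tested by over 0.1 on the log2 scale. Depth limits TIRAP, NFKB2 and the untested targets, at 30 counts or fewer per library.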
